A study of Mus musculus with 12 samples.

Results

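The Schlafen genes are a family of interferon-responsive genes of immune cells and other tissues, and 9 of the 19938 genes measured in these livers belong to it. They were taken by symbol: Slfn1 and Slfn2 of the short class, Slfn3 and Slfn4 of the intermediate class, Slfn5, Slfn8 and Slfn9 of the long class, the pseudogene Slfn10-ps, and the distant relative Slfnl1. Each of the 9 was read by 1 row of the array table, so none had to be chosen among rows. Slfn14 had no row of its own and was not analysed here. The family was chosen by the difference between ChREBP and GFP livers in these same RMA values, so the values of its members are given as a description and support no test.

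Whole liver was profiled in 6 mice given an adenovirus for ChREBP and 6 mice given an adenovirus for GFP, with 1 Affymetrix mouse gene array per mouse. ChREBP, encoded by Mlxipl, is a transcription factor that responds to glucose and drives genes of glycolysis and fat synthesis, and GFP is an inert fluorescent protein. All mice were male C57BL/6J, labelled 8 weeks old, injected in the tail vein, and fed when the liver was taken 3 weeks later. All mice of both groups therefore carried an adenovirus. The sources used here do not give the promoter of the viruses or the species and isoform of ChREBP, and the dose is written ambiguously in the labels and is not given here. Values are log2 RMA values, in which 1 unit is a doubling, and every difference is ChREBP minus GFP.

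Schlafen proteins were first described in developing mouse thymocytes, where their levels follow the state of growth and activation of the cell. They share an amino-terminal core that binds RNA, and the long proteins add a helicase-like region at the carboxyl end. Several of them cut or shield transfer RNA, as known for human SLFN11 and rat Slfn13, which cut it, and for mouse Slfn2, which protects it in T cells. Type I interferons, signalling through their receptors, JAK kinases and STAT and IRF factors, induce many Schlafen genes in lymphocytes and myeloid cells.

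Among the members with a promoter sequence, the 3 long genes held the letters of the interferon response element and the other 5 did not. The core letters of the interferon response element, GAAANNGAAA or TTTCNNTTTC on the other strand, were searched in the RefSeq promoter windows of assembly GRCm38.p6, which run from 250 bases before to 50 bases after a gene's start. Of the 9 members, 8 had a window, and 3 of these held the letters, namely Slfn5, Slfn8 and Slfn9, the 3 long genes. The letters stood in 3.44% of all 32851 windows. The 3 stretches below are shown because they hold this match, which is in capitals. Slfn8 is read on the minus strand of chr11:83020804-83020903, Slfn9 on the minus strand of chr11:82991821-82991920, and Slfn5 on the plus strand of chr11:82951902-82952001.
Slfn8: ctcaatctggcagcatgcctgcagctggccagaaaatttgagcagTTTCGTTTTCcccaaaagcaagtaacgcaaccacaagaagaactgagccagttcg
Slfn9: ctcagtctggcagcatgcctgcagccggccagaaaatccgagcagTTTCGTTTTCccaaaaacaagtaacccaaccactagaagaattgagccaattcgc
Slfn5: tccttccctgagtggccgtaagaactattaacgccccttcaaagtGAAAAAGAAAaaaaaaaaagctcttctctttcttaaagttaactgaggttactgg
Counted from the annotated start as base 0, the match began at -48 in Slfn8, at -45 in Slfn9 and at -155 in Slfn5. Slfn8 has a second annotated start, from which the same letters began at -136. Slfn8 and Slfn9 were the most alike in sequence, and their windows shared 252 of 312 aligned columns (80.8%), against 46.4% to 53.0% in the other 27 pairs of members.

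A second set of letters belonged to the other classes. The run ACTTCCTGG, or CCAGGAAGT on the other strand, was the longest run common to the windows of Slfn1, Slfn2, Slfn3 and Slfn4 and stood in 0.843% of all windows. It was sought after the sequences of these 4 genes had been read, so its presence in them is how it was found. It holds TTCC, which is GGAA on the other strand, the core letters of sites for ETS family factors. The 4 stretches below show it in capitals, all on the plus strand, from chr11:83116701-83116800 for Slfn1, chr11:83065012-83065111 for Slfn2, chr11:83191243-83191342 for Slfn3 and chr11:83175068-83175167 for Slfn4.
Slfn1: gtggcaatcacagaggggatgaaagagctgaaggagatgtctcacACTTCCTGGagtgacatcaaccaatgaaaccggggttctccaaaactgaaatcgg
Slfn2: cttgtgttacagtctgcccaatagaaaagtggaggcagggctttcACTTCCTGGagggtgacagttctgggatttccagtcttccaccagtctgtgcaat
Slfn3: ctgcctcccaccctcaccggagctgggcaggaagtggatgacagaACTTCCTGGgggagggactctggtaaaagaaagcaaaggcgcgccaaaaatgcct
Slfn4: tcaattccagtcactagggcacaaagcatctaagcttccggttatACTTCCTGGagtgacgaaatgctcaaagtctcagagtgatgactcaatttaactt
The run began at -74 in Slfn1, -55 in Slfn2, -42 in Slfn3 and -73 in Slfn4. The E-box CACGTG, one of the boxes of the element that ChREBP binds together with Mlx, was in 0 of the 8 members' windows and in 7.15% of all windows. The gamma activated site TTCNNNGAA was in 0 of the 8 and in 8.30% of all windows. These counts concern the letters in these windows only, and the factors themselves were not measured on this DNA.

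The label of the groups was checked on the overexpressed gene. Mlxipl lay between 10.74 and 10.96 on the ChREBP arrays and between 9.07 and 9.61 on the GFP arrays, a difference of 1.57 (SE 0.09, 2.98-fold). The adjusted p was 2.86e-08 by limma, and an exact two-sided permutation test over 924 assignments gave p = 0.00216, the smallest it can give. Over all arrays, medians ran from 5.96 to 6.05, and arrays of 1 group correlated at 0.981 to 0.997, against 0.964 to 0.983 between groups. Markers of acinar pancreas, summed over 8 genes before taking log2, reached 15.30 and 15.12 on ChREBP 4 and ChREBP 5, and at most 10.76 elsewhere. ChREBP 5 was also the highest array for summed T and NK cell, monocyte, neutrophil, B cell and endothelial transcripts.

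Of the Schlafen genes, 7 were higher in ChREBP livers and the other 2 had overlapping groups. At an adjusted p under 0.05 by limma, with Benjamini-Hochberg adjustment over all genes, 7 of the 9 members passed with a higher level and 0 with a lower one, beside 13.3% of all genes that passed as higher and 13.7% as lower (27.0% in all). Nothing is read from that count, because the family was proposed from this contrast. The 7 were Slfn1, Slfn2, Slfn4, Slfn5, Slfn8, Slfn9 and Slfn10-ps, and in each of them all 6 ChREBP arrays lay above all 6 GFP arrays. Across all genes the groups stood apart in 15.2%, and with ChREBP higher in 8.33%. The median difference of the 9 members was 0.53, against -0.04 over all genes. In 4 members the level was at least 1.5-fold higher, beside 3.99% of all genes that were so and passed. Only Slfn2 of the 9 exceeded 2-fold.

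**Figure D1:**
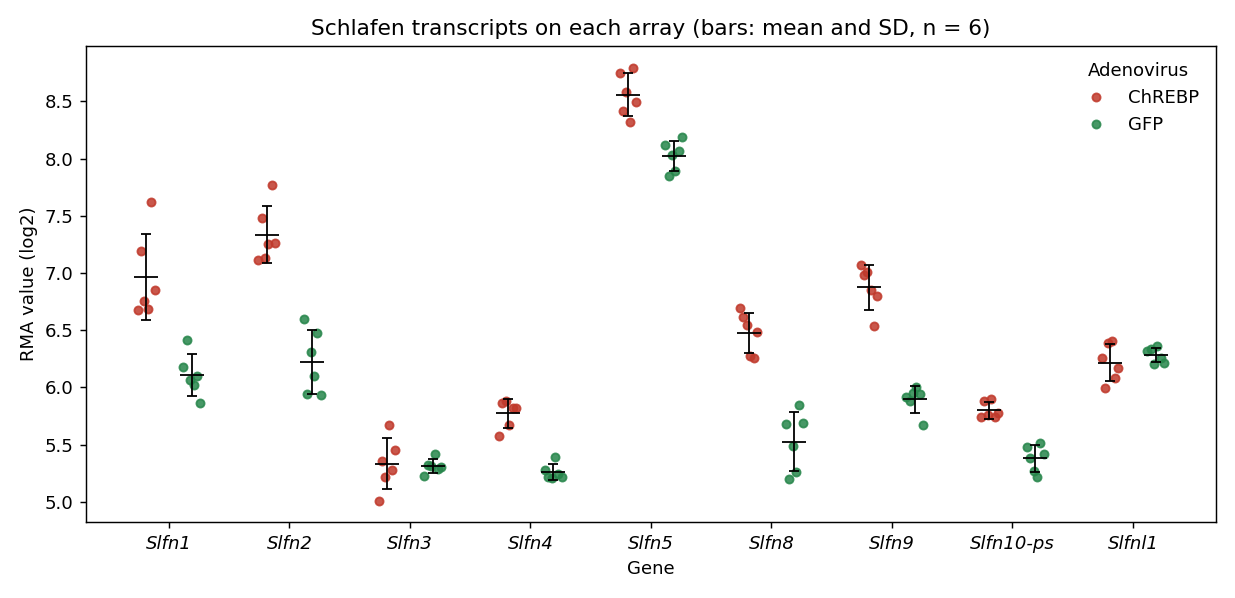
RMA values (log2, vertical axis) of the 9 Schlafen genes on each array, with ChREBP left of GFP for each gene; points are arrays, and bars give the mean and SD of 6. In 7 genes no ChREBP point reaches down to a GFP point, while Slfn3 and Slfnl1 overlap, and Slfn1 and Slfn2 each have a ChREBP array at 7.62 and 7.77 above the rest.

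The short genes were the most spread among the ChREBP livers. Slfn2, which keeps T cells and monocytes quiescent in mice, had 7.11, 7.26 and 7.77 as its lowest, median and highest ChREBP values, against 5.93, 6.20 and 6.60 on the GFP arrays. Its lowest ChREBP array was 0.52 above its highest GFP array. The means were 7.33 ± 0.25 in ChREBP livers and 6.22 ± 0.28 in GFP livers (SD, n = 6 each), a difference of 1.11 (SE 0.14, 2.16-fold) that placed it 281st from the top of all genes.

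Slfn1, the founding member, slows the growth of thymocytes when expressed in excess. Its lowest, median and highest values were 6.68, 6.81 and 7.62 in ChREBP livers, against 5.87, 6.08 and 6.42 in GFP livers. ChREBP 5 was the highest array and ChREBP 2, at 7.19, the next, while the other 4 ChREBP arrays lay between 6.68 and 6.85. The difference was 0.86 (SE 0.15, 1.81-fold), between means of 6.96 ± 0.37 in ChREBP livers and 6.11 ± 0.18 in GFP livers. The same arrays led for Slfn2, with 7.77 on ChREBP 5 and 7.48 on ChREBP 2. Without ChREBP 5 the difference was 0.73 for Slfn1 and 1.02 for Slfn2.

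The intermediate genes, which lie side by side, parted. Both were dim, with group means under the lowest array median of 5.96, and whether Slfn3 was expressed in these livers was not tested. Slfn4, known from interferon-responsive myeloid cells of the infected mouse stomach, ran from 5.57 through a median of 5.82 to 5.88 in ChREBP livers, against 5.21, 5.23 and 5.39 in GFP livers. Its groups stood 0.18 apart, and its difference was 0.51 (SE 0.06, 1.43-fold). Slfn3, studied in the rat for its part in the maturation of gut epithelium, had 5.01, 5.32 and 5.67 in ChREBP livers, against 5.23, 5.30 and 5.42 in GFP livers. The GFP values of Slfn3 lay inside the range of its ChREBP values. Its means were 5.33 ± 0.22 in ChREBP livers and 5.31 ± 0.06 in GFP livers, so that the SD was 3.54 times as large with ChREBP while the difference was 0.02 (SE 0.09). ChREBP 4 gave the highest Slfn3 value and ChREBP 1 the lowest, and the sign of the difference turned without ChREBP 4 (-0.05) or without ChREBP 6 (-0.0025).

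Of the long genes, Slfn9 and Slfn8 stood far from their GFP levels and Slfn5 less so. Slfn9 had 6.53, 6.92 and 7.07 as lowest, median and highest in ChREBP livers, against 5.67, 5.93 and 6.00 in GFP livers, with the widest gap of the 7 between the groups (0.53). Its difference was 0.98 (SE 0.09, 1.97-fold), and ChREBP 5, the top array for the short genes, was its lowest ChREBP array. Slfn8, which slowed T cell development when expressed in excess in mice, had 6.26, 6.51 and 6.69 in ChREBP livers, against 5.20, 5.59 and 5.84 in GFP livers. The groups of Slfn8 stood 0.41 apart and differed by 0.95 (SE 0.11, 1.93-fold), again with ChREBP 5 as the lowest ChREBP array. Without ChREBP 5 the differences were 1.05 for Slfn9 and 1.00 for Slfn8. The GFP means, 5.89 for Slfn9 and 5.53 for Slfn8, lay under the lowest array median of 5.96.

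Slfn5 is the long member whose human form restricts herpes simplex virus. It had 8.32, 8.54 and 8.80 in ChREBP livers, against 7.85, 8.05 and 8.19 in GFP livers. Its difference was 0.53 (SE 0.09, 1.45-fold), and its gap of 0.13 was the narrowest of the 7. The pseudogene Slfn10-ps, for which no protein role is known, had 5.74, 5.77 and 5.90 in ChREBP livers, against 5.22, 5.40 and 5.51 in GFP livers. Its difference of 0.42 (SE 0.06, 1.34-fold) was the smallest of the 7, and its ChREBP arrays were the least scattered of any member (SD 0.07). Slfn10-ps was dim too, with means of 5.80 in ChREBP livers and 5.38 in GFP livers, under the lowest array median of 5.96. Whether it was expressed in these livers was not tested. Close relatives such as Slfn8 and Slfn9, or Slfn3 and Slfn4, can share signal on an array, and how far they did so here was not tested.

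Slfnl1, the distant relative, is the only member off the cluster, on chromosome 4. It had 6.00, 6.21 and 6.41 in ChREBP livers, against 6.21, 6.29 and 6.36 in GFP livers, and the groups overlapped. Its difference was -0.07 (SE 0.07).

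**Figure D2:**
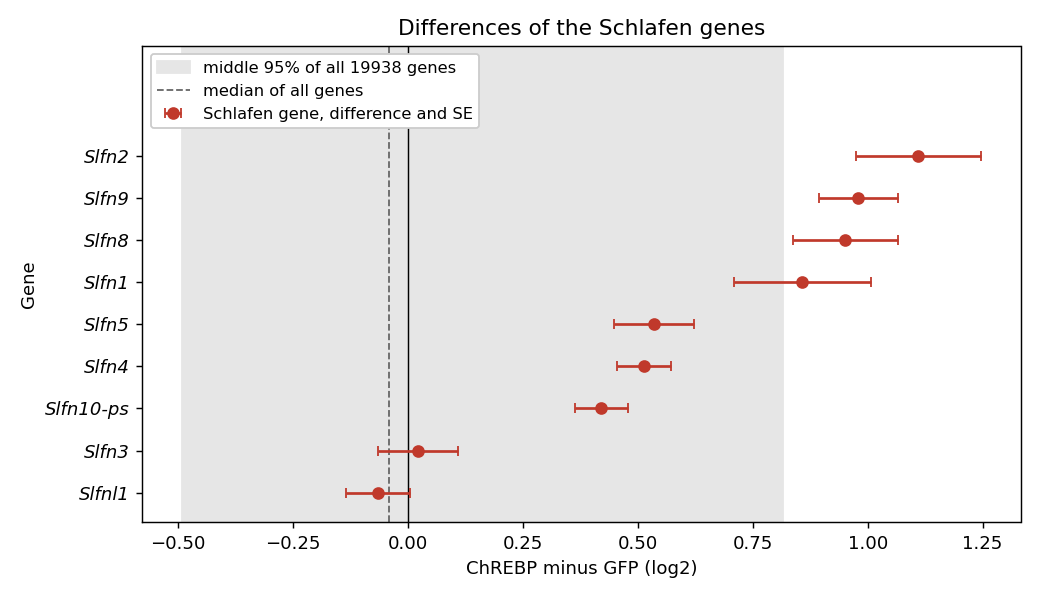
Difference of each Schlafen gene (ChREBP minus GFP, log2, horizontal axis) with its standard error, 6 arrays a group; the grey band holds the middle 95% of all 19938 genes, from -0.49 to 0.82, and the dashed line their median. Slfn2, Slfn9, Slfn8 and Slfn1 lie right of the band, and the other 5 lie inside it.

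Of the 9 members, 8 lie in 1 cluster on chromosome 11, which was set against its neighbours. In RefSeq order the measured members of the cluster run Slfn5, Slfn9, Slfn8, Slfn10-ps, Slfn2, Slfn1, Slfn4 and Slfn3. Slfn5os, a transcript of the opposite strand, lies at the Slfn5 end. Slfn14, which had no row of its own, is not placed here. Among these measured members the 7 higher ones stood next to each other, from Slfn5 to Slfn4. The 3 measured and named protein-coding genes before the cluster were Fndc8 (-0.04), Nle1 (-0.01) and Unc45b (-0.08). The 3 after it were Ap2b1 (0.11), Rasl10b (0.10) and Gas2l2 (-0.17). By limma none of these 6 passed, nor did Slfn5os, at -0.04 (SE 0.06), with adjusted p between 0.10 and 0.92. Slfn5os thus gave -0.04 beside 0.53 for Slfn5.

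**Figure D3:**
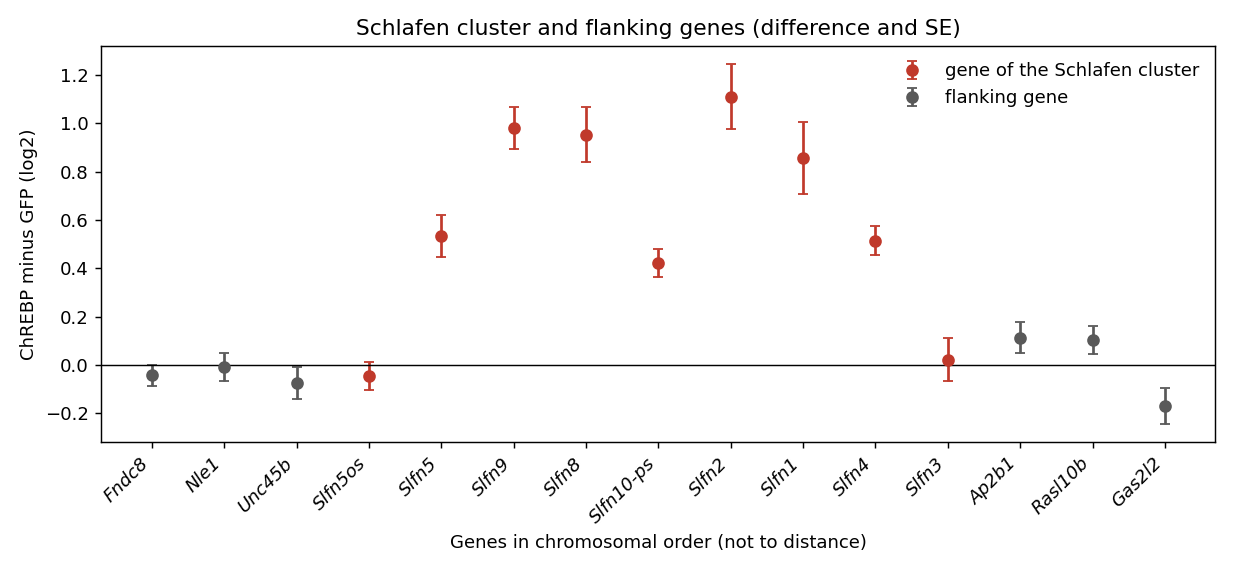
Differences (ChREBP minus GFP, log2, with standard error, 6 arrays a group) of the measured genes of the chromosome 11 cluster. The 3 measured and named protein-coding genes on each side are also shown, in chromosomal order and not to distance. The cluster genes from Slfn5 to Slfn4 lie between 0.42 and 1.11, while Slfn5os, Slfn3 and the flanking genes lie between -0.17 and 0.11.

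Within the groups the members did not move as a block. After each group's mean was subtracted, the 36 pairs of members had a median Pearson r of -0.07 over the 12 arrays. Slfn1 and Slfn2, the short genes, were the only pair above 0.5, with r = 0.60 and Spearman rho = 0.58. Slfn8 and Slfn9 gave r = 0.29 (rho = 0.28). Another 3 pairs lay below -0.5, namely Slfn3 with Slfn5 (r = -0.74, rho = -0.80), Slfn1 with Slfnl1 (r = -0.55) and Slfn3 with Slfn8 (r = -0.51). All points come from the same 12 arrays and share their normalization, so these values are descriptions.

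The genes most like a member across arrays differed from one member to the next. For each member the 4 of highest r were picked from all measured genes. Members, predicted genes, small RNAs, olfactory receptor genes and unnamed clones were left out. Picking the highest of so many genes over 12 arrays gives high r by itself, and what chance would give was not tested. For Slfn2 the highest group-centred correlations over the 12 arrays were with Stard8 (r = 0.94), Smyd3 (r = 0.92), Cd53 (r = 0.92) and Crnkl1 (r = 0.90). Without the 2 arrays farthest from the Slfn2 median these were 0.88, 0.88, 0.88 and 0.84. The group differences of these genes, which the correlation does not use, were -0.29 for Stard8, -0.27 for Smyd3, 0.83 for Cd53, a tetraspanin of leukocytes, and 0.03 for Crnkl1. Of them Stard8 passed as lower and Cd53 as higher, and the other 2 did not pass. For Slfn8 they were Frmd4b (r = 0.95), Zfp318 (r = 0.93), Camta2 (r = 0.92) and Dnm2 (r = 0.92), and 0.93, 0.91, 0.89 and 0.88 without the farthest 2 arrays. None of these 4 passed by limma between the groups, with differences from -0.19 to -0.01 and adjusted p between 0.053 and 0.93. For Slfn9 they were Cox5a (r = 0.93), Mrpl50 (r = 0.92), Dnajc25 (r = 0.92) and Apol7a (r = 0.91), which dropped to 0.69, 0.71, 0.73 and 0.68. Cox5a (-0.12), Dnajc25 (-0.18) and Apol7a (-0.37) passed as lower in ChREBP livers, and Mrpl50 (-0.02) did not pass. The likeness to Slfn9 thus rested more on 2 arrays than the likeness to Slfn2 or Slfn8.

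The interferon pathway that induces Schlafen genes was read from ligand to target. Counts in this list and those below stand beside 13.3% of all genes that passed as higher and 13.7% as lower. In lists this short, 1 gene passing in a direction is near these shares. Of 7 ligand genes measured, 0 were higher and 1, Ifne, was lower (-0.17), and the list's median was -0.17. Ifna4, Ifnb1, Ifne and Ifng were dim, with group means from 3.97 to 5.54, under the lowest array median of 5.96. Detection calls were not used here, so a rise in these dim ligands could have been missed. The count of lower ligands was 3 without ChREBP 4 and 2 without GFP 1 or GFP 4. It was 0 with the dimmest 25% of genes left out, and 0 without GFP 6 and ChREBP 6. Ifnb1, the ligand that most cells make first, gave 4.25 ± 0.13 in ChREBP livers and 4.42 ± 0.13 in GFP livers and did not pass. Of 7 receptors and kinases, 2 were higher and 0 lower, both being chains of the interferon gamma receptor, Ifngr2 (0.42) and Ifngr1 (0.31). That count stands beside 13.3% of all genes that passed as higher and 27.0% in either direction. Nothing is read from it in a list this short.

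Transcription factors of the pathway moved in both directions. Irf7, which amplifies the type I response, averaged 8.06 ± 0.21 in ChREBP livers and 7.08 ± 0.15 in GFP livers, a difference of 0.98. Irf1 (0.57) and Irf8 (0.21) were also higher, and Irf2 (-0.33) and Irf5 (-0.23) lower, of 8 measured. The count of lower factors was 1 rather than 2 when ChREBP 1, 2, 3, 5 or 6 or GFP 1, 5 or 6 was left out. Among 5 feedback inhibitors 2 were higher and 0 lower. Usp18, which shuts off signalling at the type I receptor, averaged 9.35 ± 0.12 in ChREBP livers and 7.41 ± 0.26 in GFP livers (difference 1.94), and Ptpn6 differed by 0.22.

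Antiviral targets and sensors were higher in part. Of 17 antiviral targets 11 were higher and 0 lower, with a median of 0.36, beside 0.53 for the Schlafen members and -0.04 for all genes. The count of higher targets ran from 8 to 13 with 1 array left out, and was as low as 6 under the other settings. The 4 with the smallest p were Oasl2 (1.00) and Ifit3 (1.06), Ifit2 (1.01) and Ifit1 (0.73), of a family that binds foreign RNA. Oas3, Adar and Zc3hav1 lay within 0.03 of 0 on either side and did not pass. Of 11 sensors of nucleic acid 6 were higher and 0 lower, among them Zbp1 (1.15), Aim2 (0.70), Sting1 (0.51) and Tlr7 (0.44).

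**Figure D4:**
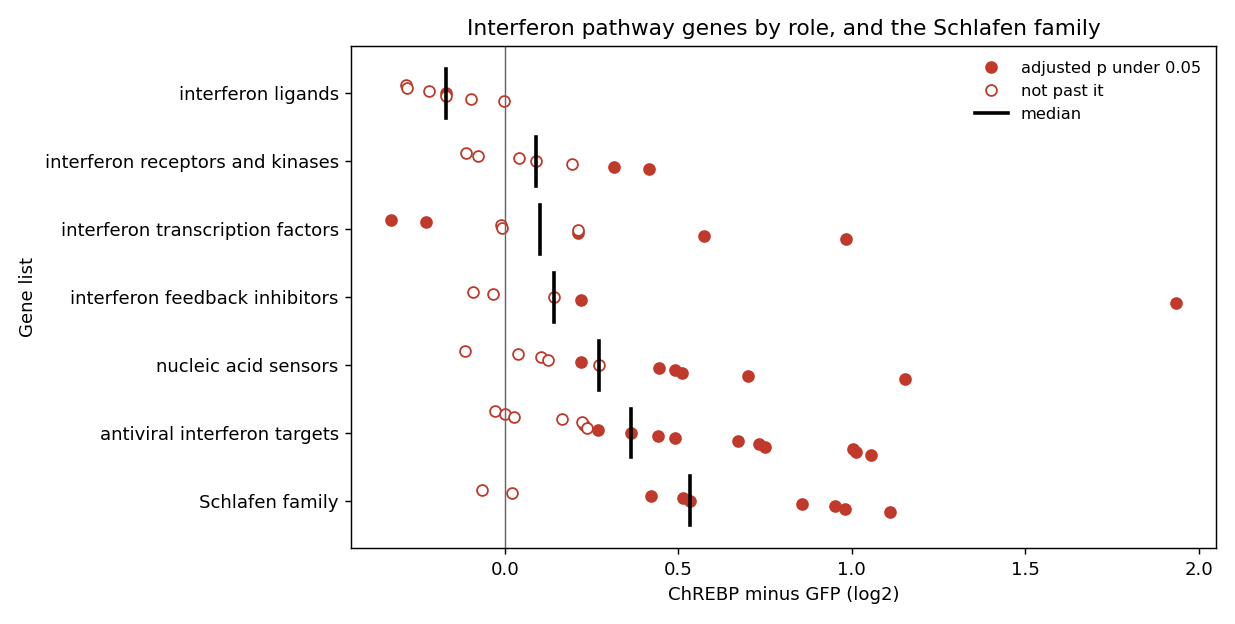
Differences (ChREBP minus GFP, log2, horizontal axis) of interferon pathway genes sorted by role and of the 9 Schlafen genes; filled points passed an adjusted p of 0.05 by limma, open points did not, and black bars are medians. The medians run from -0.17 for the ligands to 0.36 for the antiviral targets and 0.53 for the Schlafen genes.

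Because Slfn2 bears on the cutting of transfer RNA, some ribonucleases of transfer RNA and an inhibitor were listed too. Of 7 listed genes 5 were measured, namely Ang2, Ang4, Ang5, Elac2 and the inhibitor Rnh1. Ang itself was not among them, so the list does not cover the reaction. Of the 5 measured genes 0 were higher and 1 was lower, Ang2 of the mouse angiogenin family (-0.31). Over all genes 13.3% passed as higher and 13.7% as lower. Without ChREBP 4 or without GFP 2 the count of lower genes was 2. The inhibitor Rnh1 gave 8.92 ± 0.12 in ChREBP livers and 8.80 ± 0.06 in GFP livers and did not pass.

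Schlafen genes are best known from immune cells, and markers of monocytes and recruited macrophages and of T and NK cells were higher in part. In whole liver, more cells of a type and more RNA per cell cannot be told apart, nor can fewer cells and less RNA per cell. Over all genes 13.3% passed as higher and 13.7% as lower. Of 12 markers of monocytes and recruited macrophages 8 were higher and 0 lower, among them Gpnmb (2.17), Plac8 (1.64), Cd14 (1.45) and Cybb (1.08). Their summed level was 11.81 to 12.62 in ChREBP livers, against 10.89 to 11.15 in GFP livers. Of 14 T and NK cell markers 7 were higher, led by Gzma (1.85), Cd3g (1.07) and Nkg7 (0.99). Zap70 (-0.35) was lower, with 2 lower without ChREBP 5. The other 6 did not pass, namely Cd2 (0.71), Thy1 (0.19), Ncr1 (0.02), Cd247 (-0.02), Cd4 (-0.05) and Klrb1c (-0.13). Ncr1 and Klrb1c, which mark NK cells, were dim, with group means from 3.87 to 4.07. The sum of the 14 markers was 10.06 to 10.87 in ChREBP livers, against 9.56 to 9.94 in GFP livers. Neither of these sums overlapped between the groups, and their part in the Schlafen differences was not tested.

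Other immune lists moved less or in both directions. Resident macrophages of the liver, the Kupffer cells, had 3 of 8 markers higher (Cd5l 0.83, Adgre1 0.63, Csf1r 0.50) and 5 lower, Cd163 (-2.10), Timd4 (-1.59), Clec4f (-0.41), Marco (-0.35) and Vsig4 (-0.21). Their summed levels overlapped, at 11.78 to 12.12 in ChREBP livers and 11.69 to 12.09 in GFP livers, and 3 rather than 5 markers were lower without ChREBP 1 or 5 or GFP 1, 2 or 3. Of 11 neutrophil markers 0 passed, though 1 was higher without GFP 1 or GFP 3. Their sum was 9.32 to 10.54 in ChREBP livers, against 9.07 to 9.44 in GFP livers. Of 8 B and plasma cell markers 0 passed, though 1 was lower without GFP 3, and the sums were 8.22 to 8.79 in ChREBP livers and 8.36 to 8.53 in GFP livers. Of 8 dendritic cell markers only Itgae passed (-0.11), and it was lost without any 1 of the arrays other than GFP 5, while without ChREBP 4 another marker was higher.

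Hepatocyte markers, which identify the tissue, were high on every array. Their sum was 15.6 to 15.8 in ChREBP livers, against 15.9 to 16.0 in GFP livers, and 7 of 9 were lower with 0 higher, with a median of -0.25. Among endothelial markers 1 of 6 was higher, Lyve1 (0.57), and among those of red cells and platelets 1 of 5 was lower, Alas2 (-1.43). These 2 counts are near the shares of all genes, 13.3% higher and 13.7% lower. Of 8 acinar pancreas markers Cpb1 passed (3.69), but not without ChREBP 2, 4 or 5 or any 1 of the GFP arrays, and 2 passed without ChREBP 1 or 3. Of 4 adipocyte markers Plin1 passed (-0.22), but not without ChREBP 1, 3 or 5 or GFP 2, 3, 4 or 6. Summed adipocyte markers reached 9.52 on ChREBP 6, 9.24 on GFP 4 and 9.08 on GFP 6, and at most 8.36 elsewhere. With the arrays rich in pancreas transcripts, ChREBP 4 and ChREBP 5, left out together, the Schlafen differences were 1.02 for Slfn2, 1.07 for Slfn9, 1.06 for Slfn8 and 0.76 for Slfn1. The 7 members also passed in that fit.

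**Figure D5:**
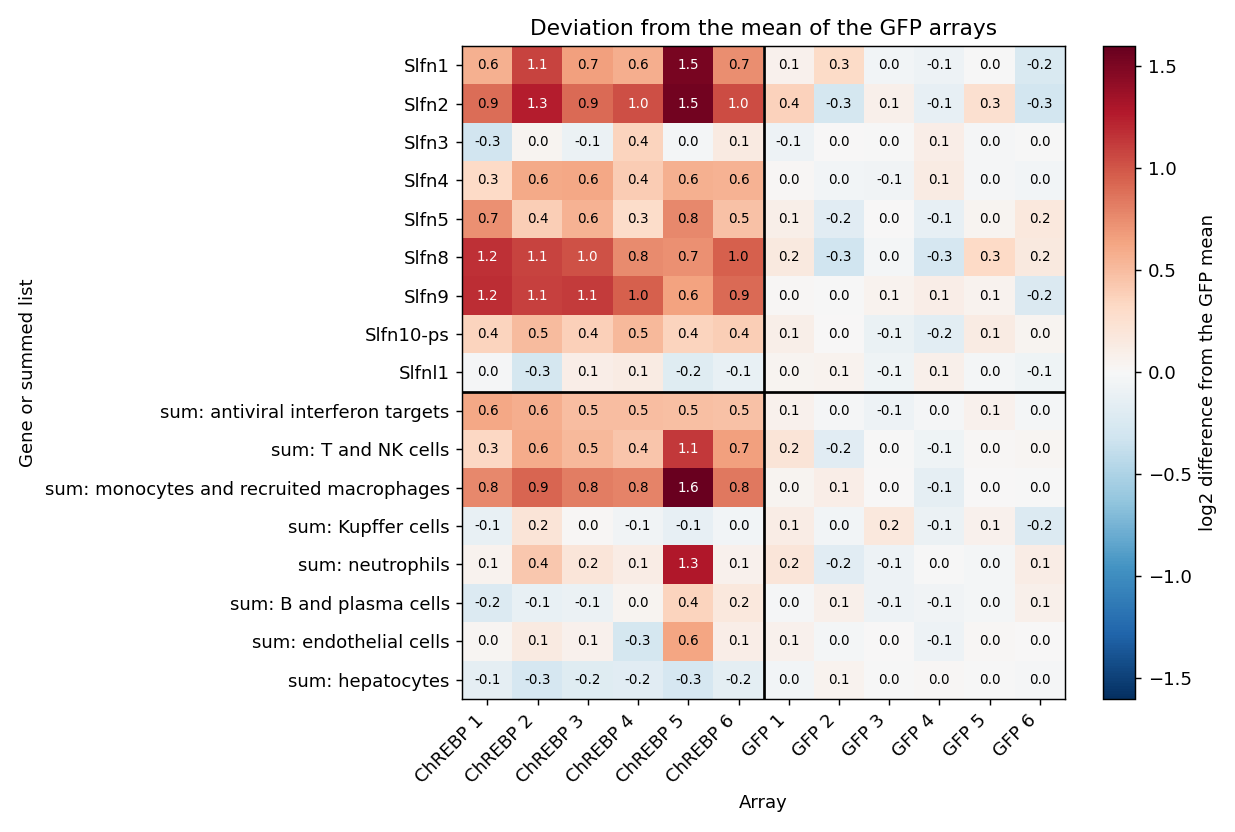
Deviation of each array (columns, ChREBP left of GFP) from the mean of the GFP arrays (log2, colour and printed value) for the 9 Schlafen genes and for summed marker and target lists. The ChREBP 5 column is the darkest for Slfn1, Slfn2 and the T and NK cell, monocyte and neutrophil sums, while Slfn8 and Slfn9 are palest there among the ChREBP arrays.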

How the data were processed

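The authors deposited log2 values made by RMA, which corrects background, normalizes quantiles across arrays and summarises probes per transcript. The submitters' notes name RMA and Partek without versions. The table holds 35556 rows, of which 21789 carry 1 gene symbol, 1621 several and 12146 none in the platform annotation. Entrez IDs matched 21698 of the single-symbol rows to RefSeq GRCm38.p6 names. The brightest row stood for each of 19938 genes, with no filter on dim genes, and detection calls were not used here. Groups came from the sample labels, which call the samples biological replicates. The test was limma's moderated test (version 3.58.1, R 4.3.3), two-sided and without covariates, and a gene passed at a Benjamini-Hochberg adjusted p under 0.05 over all genes. The procedure was tested on simulated data. The number of arrays limits the precision. Scan dates were not used here, so no batch was tested.

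Sums of a list add the unlogged values of its genes and are given as log2. Members and lists were chosen with earlier results of these data known. Named genes are the members, Mlxipl, up to 4 genes of each list with the smallest p, the 4 genes most like each of the 3 members with the largest differences, 3 genes on each side of the cluster, and genes that complete a small count. Cd53 and the other like genes fall under that rule, while Oas3, Adar and Zc3hav1 were named after their values were seen. Members, predicted genes, small RNAs, olfactory receptor genes and unnamed clones were left out of the like genes. The genes on each side of the cluster are named protein-coding genes. The alternatives were other scalings, filters, row rules, moderation, weights for arrays, the analysis of variance and threshold of the methods, the replicate number as a block, and arrays left out.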

Additional observations from a re-analysis of the deposited data

Results flagged for a closer look

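Of 20 groups of 6 arrays examined, formed by the 9 members and Mlxipl in each virus group, 1 held an array far from the others, and chance flags about 1 in 20. Slfn9 was 5.67 on GFP 6, where the nearest other GFP array was 5.88, a gap of 0.642 of the whole GFP range. The ChREBP arrays of Slfn9 began at 6.53.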

How the results depend on the processing

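Under 25 other settings the 7 higher members stayed past the threshold, with 1 exception. At the methods' threshold, a fold of 1.5 with an unadjusted p under 0.05, 4 members were called, because Slfn4 (0.51), Slfn5 (0.53) and Slfn10-ps (0.42) fell under that fold. The same threshold called 1120 genes in place of 5375, with 801 higher and 319 lower. With 1 array left out, 7 members were called each time and 4656 to 5632 genes. The Slfn3 difference turned sign with array weights (-0.0092), without ChREBP 4 and ChREBP 5 (-0.0498) and without GFP 6 and ChREBP 6 (-0.0043), and ran from -0.0458 to 0.0865 with 1 array left out. It passed in none of these settings. Median centring gave 2364 higher and 3196 lower genes and a median of all genes of -0.06.

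The groups share replicate numbers, but samples of the same number did not deviate together (r from -0.06 to 0.25, above 0.1 in 1 of 6 pairs). With the replicate number as a block, 4439 genes were called, 2380 higher and 2059 lower, and 7 members, and in 1 of 6 numbers did a sample correlate best with its own. Under the block 0 of the interferon transcription factors were lower (in place of 2) and 2 higher (in place of 3), 3 Kupffer markers were lower (in place of 5), 0 dendritic cell markers were lower (in place of 1) and 1 B and plasma cell marker was higher (in place of 0). The Mlxipl difference was 1.52 to 1.63 over all settings.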
